A study of Caenorhabditis elegans with 24 samples.

Results

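The comparison described here sets total mRNA of a *daf-2;rsks-1* double mutant of *Caenorhabditis elegans* against total mRNA of wild-type N2 worms. The libraries were chosen by their labels, 4 of the double mutant and 4 of N2, which makes 8 of the 24 libraries of the series. The other 16 hold polysome-bound mRNA of both strains and both mRNA pools of N2 worms on dietary restriction (DR). Both strains compared were well fed (ad libitum, AL) with OP50 bacteria from day 1 of adulthood, kept at 20°C in the presence of FUdR, and lysed whole after 4 days on this diet. FUdR blocks DNA synthesis and keeps eggs from developing into progeny. The labels name the 2 mutated genes but give no alleles, and a single mutant of either gene was not analysed here, so the contributions of *daf-2* and *rsks-1* cannot be told apart. Strain background also cannot be told apart from the mutations, since 1 strain carries both. The 4 libraries of a strain are described as biological replicates. Whole worms were sequenced, so that fewer cells of a type and less RNA per cell cannot be told apart in any value below.

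DAF-2 is the only insulin/IGF-1 receptor of the worm. When it signals, the kinases AGE-1, PDK-1, AKT-1 and AKT-2 keep the FOXO transcription factor DAF-16 out of the nucleus, and when signalling is low DAF-16 enters the nucleus and changes the expression of stress, metabolic and defence genes. RSKS-1 is the S6 kinase that acts below TOR (LET-363 in the worm) and promotes protein synthesis. Reduced function of either gene lengthens life, and the double mutant is known for a life span longer than that of either single mutant.

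The *daf-2;rsks-1* libraries held 11259234 to 15658505 reads on genes with a median of 11834736, and the N2 libraries 10250079 to 12394990 with a median of 12106552. The deposited values are reads scaled for library size and by a composition factor, called CPM below. Replicates of a strain correlated at 0.997 or more across genes on the log2 scale, and libraries of different strains at 0.910 to 0.914. No pair of replicates fell within sampling noise of each other. The first principal component separated the strains and held 95.8% of the variance. One N2 library, replicate 3, stood out by a higher share of reads on ribosomal RNA genes, 5.83% against 1.27% in the lowest N2 library and 1.02 to 2.49% in the mutant. Leaving this library out gave 381 genes higher and 244 lower.

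The test was run on the 8086 protein-coding genes that averaged 8 CPM or more in the 8 libraries. Of these, 387 (4.79%) were at least 2-fold higher in *daf-2;rsks-1* than in N2 worms and 241 (2.98%) at least 2-fold lower, at an adjusted p under 0.05 (limma, Benjamini-Hochberg over all 8086 genes). Together these were 7.77% of the genes tested. Small differences were far more common, with 78.3% of the genes under an adjusted p of 0.05 when no minimum fold was asked, and 76.3% with no overlap between the 4 mutant and the 4 N2 values. A list of genes in which most members pass the test without a 2-fold change is therefore near the background. Counts of calls in a list are read against the shares of all genes, 4.79% higher, 2.98% lower and 7.77% together. A gene low in 1 strain could pass the minimum through the other strain alone. Such shares are therefore of the members tested, not of whole families. The median log2 difference of all genes was −0.12. Without the authors' composition factor it was 0.01, and the calls were then 490 higher and 178 lower, so that the share of higher calls was 73.4% in place of 61.6%. Values given with ± are means and SD of 4 libraries of a group unless called SE. Log2 differences below are mutant minus N2 on log2(CPM + 0.5), which understates the change of genes with few reads, and gene lists are read against the median of −0.12.

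**Figure D1:**
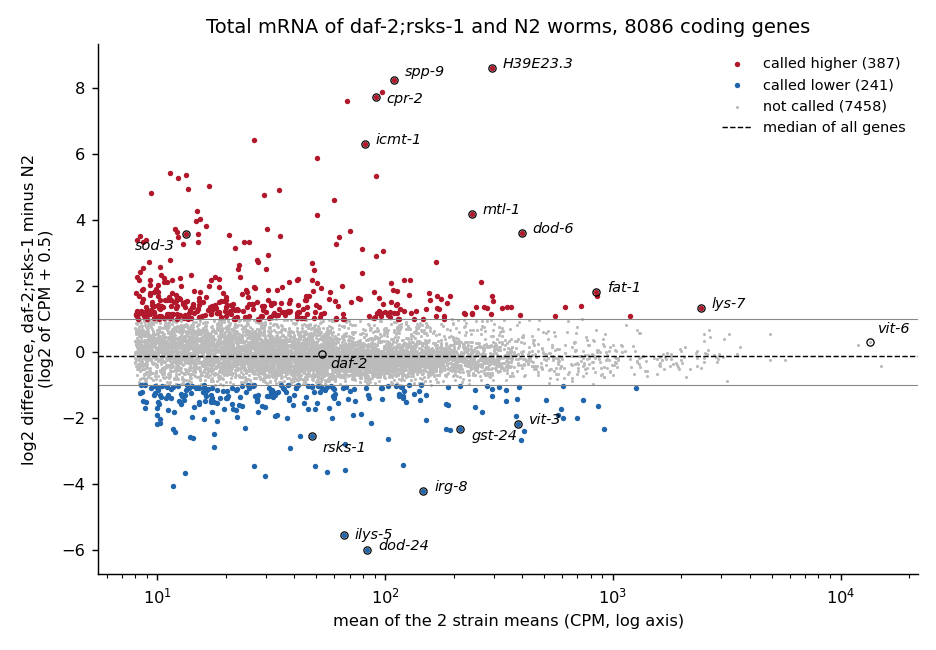
Log2 difference between *daf-2;rsks-1* and N2 total mRNA for each of the 8086 coding genes tested (vertical axis, log2 of CPM + 0.5) against the mean of the 2 strain means (horizontal axis, CPM, log scale). The 387 genes called higher are red, the 241 called lower are blue, and the dashed line marks the median of −0.12; the increases reach 8.61 and the decreases −6.0.

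The label of the strain was checked on its mutated genes. *rsks-1* on chromosome III had 13.5, 14.5, 14.3 and 12.58 CPM in the 4 mutant libraries, against 86.5, 76.6, 80.02 and 82.8 CPM in the 4 N2 libraries. All 4 mutant values lay below all N2 values, and the log2 difference was −2.53 ± 0.075 (SE, adjusted p = 1.35e-27, limma). *daf-2* mRNA had 50.7, 53.2, 50.7 and 52.4 CPM in the mutant against 56.8, 50.1, 52.4 and 54.8 CPM in N2, with overlapping values and a log2 difference of −0.05 (adjusted p = 0.552), which was 0.08 without the composition factor. The level of *daf-2* therefore neither shows nor contradicts the *daf-2* mutation, and *rsks-1* matched the label.

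Within the insulin pathway, 1 of 12 genes tested was called (8.33%), near the 7.77% of all genes. *akt-2*, which encodes 1 of the 2 AKT kinases, had 40.4, 38.6, 36.4 and 35.4 CPM in the mutant against 18.4, 17.4, 18.1 and 20.1 CPM in N2, a log2 difference of 1.01 ± 0.071 (adjusted p = 1.2e-15), which fell under 2-fold (0.98 to 1.0) when N2 replicate 2 or 3 or mutant replicate 1 or 2 was left out. Its paralog *akt-1* stood at 210.1 ± 7.25 CPM in the mutant and 242 ± 2.04 CPM in N2 (SD, n = 4 each). The gene of the transcription factor itself, *daf-16*, was level between the strains, with 159 ± 2.54 CPM in the mutant and 159 ± 4.101 CPM in N2 (log2 difference 0.00, −0.02 to −0.01 in the 3 alternatives that gave a negative sign). The PI3 kinase gene *age-1* differed by −0.41, its adaptor *aap-1* by −0.15, *sgk-1* by −0.53, the 14-3-3 genes *ftt-2* and *par-5* by 0.29 and −0.29, *pptr-1* by 0.29 and *pdk-1* by −0.07, the last of which was 0.05 without the composition factor. Of 39 insulin-like peptide genes only 4 were abundant enough to test, and *ins-35* rose to 12.9 ± 1.05 CPM in the mutant against 5.06 ± 0.843 CPM in N2 (log2 difference 1.28, adjusted p = 4.88e-09).

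Of 14 TOR and S6 kinase pathway genes tested, *rsks-1* alone was called (7.14%, against 7.77% of all genes). TOR itself (*let-363*) and its partner Raptor (*daf-15*) differed by −0.41 and −0.61, and the Rictor gene *rict-1* by −0.26. The values of *let-363* and *daf-15* did not overlap between the strains, which held for 76.3% of all genes. The elongation factor 2 kinase gene *efk-1*, whose mammalian counterpart is a target of S6 kinase, had the largest positive log2 difference of the 14, at 177 ± 3.08 CPM against 111 ± 2.98 CPM in N2 (log2 difference 0.68, adjusted p = 1.63e-17). The AMP kinase gene *aak-2* differed by 0.41. The members *raga-1*, *mlst-8* and *aak-1* differed by −0.05, −0.11 and −0.02, and by 0.08, 0.02 and 0.11 without the composition factor. The p90 S6 kinase gene *rskn-1* was at 201 ± 1.99 CPM in the mutant and 266 ± 7.57 CPM in N2, a log2 difference of −0.41. The remaining members *ragc-1*, *rheb-1*, *nprl-2* and *nprl-3* lay between −0.24 and −0.13.

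Genes known to rise when DAF-16 is active (class 1) were higher in the mutant in 9 of 14 cases, against 4.79% of all genes. None was lower, and the median log2 difference was 1.16. The list held 35 names, of which 23 matched a gene and 14 of these passed the minimum, *sod-3* through its mutant values alone. The metallothionein gene *mtl-1* had 459, 436, 486 and 439 CPM in the mutant, against 24.7, 22.6, 24.17 and 26.7 CPM in N2. The mutant values were 18.6 times those of N2 on average, with a log2 difference of 4.19 ± 0.063 (adjusted p = 4.3e-37). *sod-3*, a mitochondrial manganese superoxide dismutase and a common reporter of DAF-16 activity, had 23.6, 25.05, 25.3 and 26.3 CPM in the mutant and 2.02, 1.34, 1.73 and 1.45 CPM in N2 (log2 difference 3.59). *dod-6* averaged 737 ± 9.31 CPM in the mutant against 60.5 ± 0.805 CPM in N2. *dod-3*, the linker histone gene *hil-1*, the lysozyme gene *lys-7*, the small heat shock gene *hsp-16.1* (the copy T27E4.2, which has a near-identical copy that reads could be shared with), the catalase gene *ctl-2* and the LEA protein gene *lea-1* rose by log2 differences of 2.51, 2.17, 1.33, 1.18, 1.148 and 1.11. The isocitrate lyase gene *icl-1* stood at 186 ± 6.01 CPM in the mutant and 99.8 ± 5.13 CPM in N2, which missed 2-fold (log2 difference 0.89, adjusted p = 3.58e-23). *gst-10*, *spp-1*, *sip-1* and *lys-8* were not called, at 0.54, 0.34, 0.04 and −0.36. Members of class 1 below the 8 CPM minimum are given with the low-abundance genes.

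Genes known to fall when insulin signalling is low (class 2) were lower in 4 of 10 cases, against 2.98% of all genes. None was higher, and the median was −0.47. *dod-24*, which also belongs to the genes that respond to pathogens, had 2.07, 2.26, 2.82 and 1.39 CPM in the mutant, against 169, 164, 161 and 164 CPM in N2. This was the largest decrease among the 8086 genes, 77.2 times lower by the means (log2 difference −5.999 ± 0.095, adjusted p = 1.44e-36). *dod-23* was at 19.9 ± 1.69 CPM in the mutant and 219.7 ± 2.16 CPM in N2, and *dod-19* at 129 ± 2.97 CPM in the mutant and 683 ± 7.74 CPM in N2. The intestinal peptide transporter gene *pept-1* fell to 4.29, 3.56, 4.196 and 3.67 CPM, against 14.6, 13.8, 13.3 and 13.3 CPM in N2 (log2 difference −1.69). The metallothionein gene *mtl-2* went the other way from its class, at 53.9 ± 0.639 CPM in the mutant and 32.2 ± 2.44 CPM in N2 (log2 difference 0.74, adjusted p = 3.54e-14), short of 2-fold. The other class 2 members tested, *nuc-1*, *aqp-1*, *vit-5*, *vit-2* and *dod-18*, lay between −0.50 and 0.43.

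**Figure D2:**
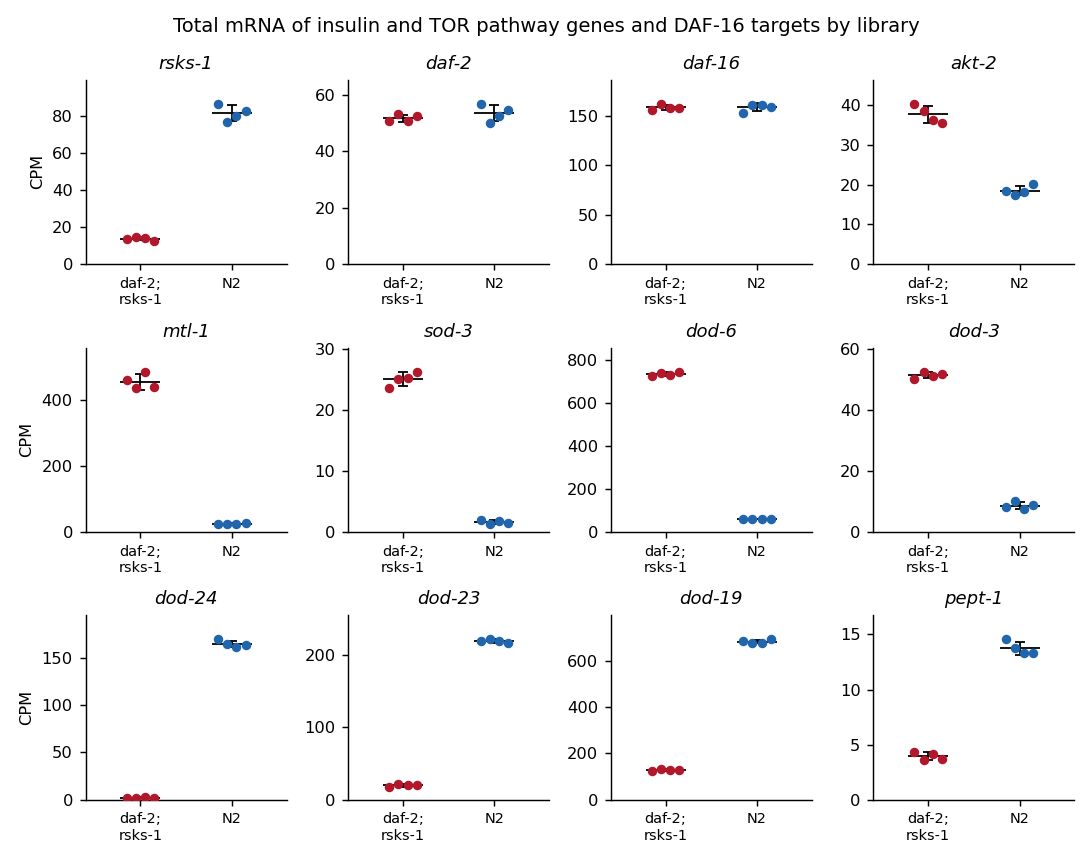
CPM in total mRNA for 12 genes of the insulin and TOR pathways and DAF-16 targets, with 1 point for each library (red, 4 *daf-2;rsks-1*; blue, 4 N2) and the mean with its SD as a black bar; every vertical axis starts at 0. The strains overlap for *daf-2* and *daf-16* and are apart for the other 10 genes.

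The 12 largest increases lay between 5.27 and 8.61 on the log2 scale, and all 12 genes were at most 3.96 CPM on average in N2. H39E23.3 on chromosome V, for which no role is given here, had 568, 601, 576 and 614 CPM in the mutant against 1.13, 0.787, 1.21 and 0.966 CPM in N2. The 32612 mutant reads against 48 N2 reads make a ratio of 578 after scaling, with a 95% counting interval of 436 to 784 (exact binomial, counting error only). Its neighbour on the chromosome, D1086.9, was the third largest increase, at 193 ± 9.28 CPM in the mutant and 0.336 ± 0.166 CPM in N2. The saposin-like gene *spp-9*, of a family that binds lipids and acts against bacteria, had 219.7, 217, 228 and 209 CPM in the mutant against 0.485, 0.079, 0.086 and 0.290 CPM in N2. *cpr-2*, a cathepsin B-like cysteine protease, was at 181 ± 3.42 CPM in the mutant and 0.362 ± 0.033 CPM in N2, and *asp-18*, an aspartyl protease, had 1256 mutant reads against 2 N2 reads, a ratio of 534 with an interval of 148 to 4418. *icmt-1*, which encodes the enzyme that methylates prenylated proteins, stood at 159, 165, 163 and 160.1 CPM in the mutant against 1.29, 2.28, 1.38 and 1.45 CPM in N2 (log2 difference 6.29, adjusted p = 1.02e-33). Its neighbour *unc-38*, a subunit of the nicotinic acetylcholine receptor of muscle that was singled out after its values were seen, was also high, at 66.7 ± 1.68 CPM in the mutant against 1.73 ± 0.288 CPM in N2. The others of the 12 were F20E11.17 (7.601), *clx-1* (6.42, on 2931 mutant reads against 6 N2 reads, a ratio of 416 with an interval of 191 to 1134), Y68A4A.13 (5.90), ZK355.3 (5.36), F40D4.13 (5.33) and C54F6.15 (5.27). Because N2 levels were near 0, these log2 values moved with the pseudocount, as for *spp-9*, which was 7.49 with a pseudocount of 1 CPM and 8.90 with 0.25 CPM.

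The 12 largest decreases lay between −6.0 and −2.90. After *dod-24* came *ilys-5*, an invertebrate-type lysozyme, with 2.38, 1.96, 2.52 and 2.29 CPM in the mutant against 132, 131, 125 and 132 CPM in N2 (log2 difference −5.55 ± 0.069). *irg-8*, an infection response gene that lies beside *dod-19* on chromosome V, had 14.4, 14.5, 16.02 and 13.4 CPM in the mutant and 275, 286, 278 and 284 CPM in N2. In both genes the mutant libraries were far below every N2 library and close to each other. The C-type lectin genes *clec-66* and *clec-265* differed by −3.76 and −3.58 and the saposin-like gene *spp-18* by −3.64. The glucocerebrosidase gene *gba-4* differed by −3.67 and the cysteine protease gene *cpr-4* by −2.90. *gba-4* shares 34 of its 1660 exon bases with another gene and *cpr-4* 21 of 1129. *drd-50*, F28H7.3, F09C8.1 and *dod-23* differed by −4.05, −3.45, −3.44 and −3.44.

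**Figure D3:**
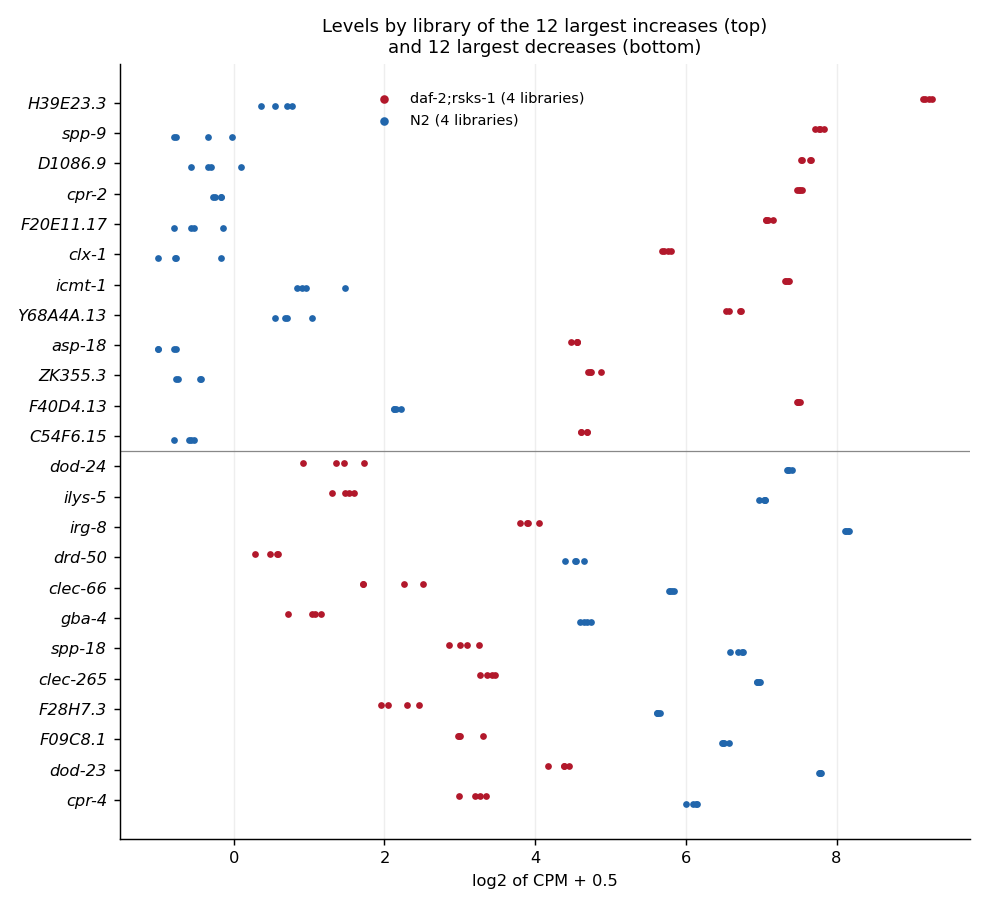
Levels by library (log2 of CPM + 0.5) of the 12 genes with the largest increase (above the line) and the 12 with the largest decrease (below it), with 4 *daf-2;rsks-1* libraries in red and 4 N2 libraries in blue. The strains do not overlap for any of these genes, which the choice of the genes required; among the increases no N2 mean exceeds 3.96 CPM.

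Defence families split, with members moving in opposite directions. Among all genes tested 4.79% were called higher and 2.98% lower, against which the counts here are read. Of 40 C-type lectin genes tested (of 240 listed), which encode secreted sugar-binding proteins many of which respond to pathogens, 6 rose and 9 fell. *clec-60* rose to 22.7 ± 0.669 CPM in the mutant against 1.26 ± 0.2499 CPM in N2, and *clec-6*, *clec-86*, *clec-5* and *clec-8* rose by 3.32, 2.23, 1.88 and 1.596. *clec-50* fell to 103, 110.2, 107 and 104.1 CPM against 681, 676, 657 and 709.5 CPM in N2, as did its neighbour *clec-49* (−2.60) and *clec-4* (−2.88). Related lectin genes can share reads, which limits the values of single members. Of 24 saposin-like, thaumatin-like and similar antimicrobial genes, 6 rose and 5 fell. *spp-12*, *spp-20*, *fipr-26* and *thn-2* rose by 5.05, 4.60, 2.72 and 2.09, while *spp-17*, *spp-5*, *spp-8* and *spp-3* fell, with log2 differences of −1.9998, −1.45, −1.07 and −1.04, of which *spp-8* (−0.94) and *spp-3* (−0.92) missed 2-fold without the composition factor. Among 7 lysozyme genes, *lys-7* rose to 3461, 3585, 3433 and 3495 CPM in the mutant against 1376, 1387, 1361 and 1430.3 CPM in N2 and *lys-4* rose by 1.22, while *ilys-5* fell. Of 17 p38 and pathogen response genes 4 fell and none rose. The 4 were the response genes *dod-24*, *irg-5* (−2.32), *irg-3* (−1.38) and *irg-1* (−1.09, or −0.97 without the composition factor), while the kinase genes *nsy-1*, *sek-1* and *pmk-1* were not called, at 0.41, 0.98 and 0.08.

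Many of these genes are expressed in the intestine, so the intestinal markers were summed. The 15 markers together made 1574 to 1631 CPM in the mutant libraries and 2613 to 2694 CPM in the N2 libraries, with 1 higher (*ges-1*, a gut esterase, 1.14) and 3 lower (*asp-1*, *cpr-1* and *pept-1*). Most of that gap lay in *asp-1*, an aspartyl protease gene that is also among the lysosomal proteases, and the other 14 markers made 1337 to 1382 CPM in the mutant libraries and 1667 to 1717 CPM in the N2 libraries. Of the 15 markers 12 had a negative log2 difference and 3 a positive one, and 11 lay below the median of all genes. The median of the list was −0.63. The transcription factor genes *elt-2* and *elt-7* on this list differed by −0.19 and −0.15, nearer the median of all genes than most of the list. The part of the intestinal markers in the defence genes was not tested.

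Lysosomal protease genes changed in both directions. Of 21 tested, 4 rose and 5 fell, that is 9 of 21 against 7.77% of all genes. As *cpr-2* and *asp-18* passed the minimum only through their mutant values, 9 of 21 is not a share of the family. Besides *cpr-2* and *asp-18*, the aspartyl protease gene *asp-5* rose to 1246, 1350.2, 1288 and 1349 CPM in the mutant, against 403, 392, 406 and 411 CPM in N2, and *cpz-2*, a cathepsin Z-like gene, to 227.1 ± 2.38 CPM against 107 ± 1.09 CPM. The aspartyl protease gene *asp-1* fell to 223, 258, 237 and 257 CPM, against 977, 965, 934 and 999 CPM in N2, and *cpr-1*, *asp-17* and *asp-2* fell, with log2 differences of −1.73, −1.25 and −1.06, the last short of 2-fold (−0.94) without the composition factor. Of the 3 lysosomal lipase genes tested, *lipl-1* rose to 44.3 ± 2.48 CPM in the mutant against 3.91 ± 0.383 CPM in N2 (log2 difference 3.35), and *lipl-5* fell to 28.2 ± 0.960 CPM against 178 ± 5.77 CPM (log2 difference −2.64). The autophagy list held 1 call among 25 genes (4%, under the 7.77% of all genes). It was *sqst-1*, the worm p62 autophagy receptor, with 508, 531, 498 and 531 CPM in the mutant and 206, 193, 194 and 203 CPM in N2 (log2 difference 1.37, adjusted p = 2.23e-28). None of the 20 vacuolar ATPase genes was called.

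The desaturase genes *fat-1*, *fat-2* and *fat-3* of polyunsaturated fat synthesis rose. In the list of fat synthesis and desaturation, 4 of 22 genes were higher, against 4.79% of all genes, and none lower, with a median of 0.32. The omega-3 desaturase gene *fat-1* had 1288, 1344, 1293 and 1319 CPM in the mutant, against 375, 382, 365 and 367 CPM in N2 (log2 difference 1.82 ± 0.03), and *fat-2*, the delta-12 desaturase gene beside it on chromosome IV, had 1588, 1680.1, 1649 and 1595 CPM against 760.0, 770.4, 750.2 and 771 CPM in N2 (log2 difference 1.09). The delta-6 desaturase gene *fat-3* rose to 297 ± 10.4 CPM in the mutant against 91.0 ± 4.98 CPM in N2, and the acyl-CoA synthetase gene *acs-3* to 15.9 ± 1.44 CPM against 3.85 ± 0.632 CPM. Of 43 fatty acid breakdown genes 3 rose and 2 fell (11.6% called, against 7.77% of all genes). These were *acs-3* again, *acs-2* (1.53), *acs-17* (1.45), *ech-7* (−1.72) and *acs-1* (−1.33). None of the 7 lipid-binding protein genes was called.

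The genes of carbohydrate metabolism that were called all rose. They made 16.7% of glyoxylate and gluconeogenesis genes, 20% of trehalose and glycogen genes and 11.8% of glycolytic genes, against 4.79% of all genes. PEP carboxykinase (*pck-1*), the enzyme that commits oxaloacetate to glucose synthesis, rose to 166, 183.5, 182.7 and 177 CPM in the mutant, against 47.5, 51.8, 42.6 and 51.95 CPM in N2 (log2 difference 1.86), and with *aco-1* (1.004) made 2 of 12 glyoxylate and gluconeogenesis genes. The trehalose-6-phosphate synthase gene *tps-1*, the trehalase gene *tre-4* and the glucosidase gene *aagr-4* rose by 1.23, 1.152 and 1.45, 3 of 15 trehalose and glycogen genes, against 4.79% of all genes. Among 17 glycolytic genes, *gpd-3* (glyceraldehyde-3-phosphate dehydrogenase, with a near-identical paralog) and the aldolase gene *aldo-1* rose by 1.154 and 1.01. The calls of *aco-1* and *aldo-1* lay at the 2-fold limit and were lost without single libraries (*aco-1* at 0.99 without N2 replicate 3, and without mutant replicate 2, and 0.996 without mutant replicate 4, *aldo-1* at 0.99 to 0.998 without N2 replicate 4 or mutant replicate 3 or 4), which leaves 1 of 12 and 1 of 17. The medians of these lists were 0.20, 0.08 and 0.23. None of 20 citrate cycle genes was called, and among 17 genes of the methionine cycle and phosphocholine synthesis *ckb-2*, a choline kinase, rose by 1.14 and the S-adenosylmethionine synthetase gene *sams-3*, which has close paralogs, fell, with a log2 difference of −1.16.

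Of the detoxification families, the cytochrome P450 genes held the largest share of upward calls among the genes tested. Of 21 cytochrome P450 genes tested (of 74 listed) 6 rose and 2 fell, against 4.79% and 2.98% of all genes, with *cyp-34A9* at 28.4 ± 0.522 CPM in the mutant and 1.34 ± 0.280 CPM in N2, and *cyp-35B1* at 41.6, 36.3, 38.8 and 37.2 CPM in the mutant and 2.91, 2.75, 2.76 and 2.80 CPM in N2. *cyp-33C7*, *cyp-34A8* and *cyp-25A2* rose by 2.197, 1.77 and 1.27, and *cyp-36A1* and *cyp-14A5* fell, with log2 differences of −1.39 and −1.32. *cyp-34A9* and *cyp-35B1* passed the minimum only through their mutant values, so 6 of 21 is not a share of the family. Of 30 UDP-glucuronosyltransferase genes 2 rose (*ugt-5*, *ugt-11*) and 2 fell (*ugt-47* and *ugt-48*, the second at −0.97 without the composition factor), so that most of that family was not called. Of 19 glutathione transferase genes 2 rose (*gst-29* and its neighbour *gst-39*) and 3 fell, of which *gst-24* fell to 73.0, 71.1, 65.7 and 74.5 CPM in the mutant, against 362, 369.8, 338 and 363 CPM in N2 (log2 difference −2.33), with *gst-6* and *gstk-1*.

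The antioxidant list was narrow. Of 17 enzyme genes tested, *sod-3* and *ctl-2* were called (11.8%, against 7.77% of all genes) and the other 15 lay between −0.18 and 0.43. The cytosolic superoxide dismutase gene *sod-1* stood at 189 ± 4.83 CPM in the mutant and 185 ± 8.35 CPM in N2. The main mitochondrial one, *sod-2*, was at 124 ± 3.21 CPM in the mutant and 130.5 ± 2.75 CPM in N2. Both genes overlapped between the strains, and *sod-2* differed by −0.07, which was 0.06 without the composition factor. The thioredoxin reductase gene *trxr-1* and the extracellular dismutase gene *sod-4* were higher without reaching 2-fold (0.37 and 0.43). In metal handling, the ferritin gene *ftn-1* rose with *mtl-1*, to 65.7, 65.6, 69.7 and 70.6 CPM in the mutant, against 16.42, 14.2, 14.2 and 13.4 CPM in N2 (log2 difference 2.19, adjusted p = 2.94e-30), which made 2 of 6 genes. Among 6 small heat shock genes above the minimum, *hsp-16.1* rose and *hsp-17* fell to 26.4 ± 1.28 CPM in the mutant against 87.2 ± 3.15 CPM in N2, and none of 21 ATP-dependent chaperone genes was called.

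Cuticle collagens had the most upward calls of the lists examined. Of 36 tested (of 177 listed), which build the extracellular cuticle made by the hypodermis, 14 rose (14 of 36 against 4.79% of all genes) and 1 fell. *col-50* rose to 25.9, 27.6, 26.9 and 27.6 CPM in the mutant, against 0.647, 0.472, 0.173 and 0.386 CPM in N2, *col-183* to 282, 298, 285 and 299 CPM against 47.9, 42.1, 37.6 and 46.3 CPM, and *dpy-14* to 134 ± 3.05 CPM against 24.9 ± 2.32 CPM. *col-45* and *col-139* rose by 3.48 and 2.12. *col-50* passed the minimum only through its mutant values, so 14 of 36 is a share of the genes tested, not of the family. The exception was *col-119*, which fell to 272 ± 4.64 CPM in the mutant against 908 ± 56.5 CPM in N2 (log2 difference −1.73). The summed level of the 11 hypodermal markers matched was 487 to 506 CPM in the mutant and 510 to 547 CPM in N2, a gap no larger than the shift that the composition factor makes, and the sign of the median of its 6 tested members turned without that factor. The part of the hypodermal markers in the collagen values was not tested. Of 12 basement membrane genes the laminin gene *lam-1* rose (1.17). Of 4 genes tested for the secreted SCP/TAPS proteins (of 26 listed, the other 22 below the minimum), *scl-24*, *scl-20* and *scl-2* rose by 3.83, 3.57 and 1.5003. *scl-24*, at 0.890 to 2.16 CPM in N2, passed the minimum only through its mutant values, so 3 of 4 is not a share of the family.

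Neuropeptide and muscle genes leaned upward with few calls. Of 18 FMRFamide-like neuropeptide genes 3 rose (16.7%, against 4.79% of all genes). A positive log2 difference was seen in 17 of 18, with a median of 0.60. *flp-15* had 15.9, 16.38, 16.7 and 15.03 CPM in the mutant against 4.53, 3.46, 4.49 and 4.25 CPM in N2, and *flp-5* and *flp-10* rose by 1.54 and 1.25. The 15 neuronal markers summed to 595 to 615 CPM in the mutant and 475 to 500.2 CPM in N2. The markers tested did not move together. *egl-3*, *egl-21*, *ida-1*, *unc-13* and *sbt-1* differed by 0.55 to 0.81, and *unc-119*, *unc-64*, *ric-4* and *snb-1* by −0.27 to 0.13. The part of the neuronal markers in the neuropeptide values was not tested. Of 28 muscle filament genes the myosin genes *myo-3* (body wall) and *myo-2* (pharynx) rose by 1.12 and 1.004 (7.14%, against 4.79% of all genes). The difference of *myo-2* fell to 0.96 to 0.999 without N2 replicate 1 or 3 or mutant replicate 1 or 2. The 11 body wall muscle markers summed to 1550 to 1642 CPM in the mutant and 1134 to 1177 CPM in N2. The 9 of them tested are also in the muscle filament list, so this sum is not a separate measurement. Among 18 longevity transcription factor genes 1 was called (5.56%, under the 7.77% of all genes). This was the nuclear hormone receptor gene *nhr-62*, at 42.3, 37.8, 37.5 and 37.5 CPM in the mutant, against 9.38, 10.5, 11.4 and 11.6 CPM in N2 (log2 difference 1.81).

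Yolk and egg production genes were lower, mostly by less than 2-fold. Vitellogenins are yolk proteins made in the intestine and taken up by oocytes, and *vit-3* and *vit-4*, neighbours with near-identical sequence that can share reads with *vit-5*, fell to 139.5 ± 8.55 CPM in the mutant against 631 ± 14.4 CPM in N2 and to 240.1 ± 4.49 CPM against 905 ± 8.76 CPM. The other yolk genes were not called. *vit-2* had 12432, 13404, 12235 and 13216 CPM in the mutant and 17708, 16554, 17402 and 17672 CPM in N2 (log2 difference −0.44), *vit-5* differed by −0.24 and *vit-1* by −0.89. *vit-6* was the exception, higher in the mutant at 14925 ± 789.8 CPM against 12103 ± 533 CPM in N2 (log2 difference 0.30, adjusted p = 6.56e-08). Of 31 eggshell and oocyte genes none was called, but 30 had a negative log2 difference, with a median of −0.51, and their sum was 18018 to 19133 CPM in the mutant and 26821 to 27813 CPM in N2. The 17 germline and oocyte markers summed to 11987 to 12819 CPM in the mutant and 17890 to 18670 CPM in N2. Most of them are also in the eggshell and oocyte list, so this sum is not a separate measurement. The markers outside that list did not move together. *gld-1*, *him-3*, *pgl-1*, *htp-3*, *glh-1* and *syp-1* differed by −0.57, −0.31, −0.07, −0.04, 0.36 and 0.59. Transcripts of the 31 major sperm protein genes were rare in both strains, together making 2.97 to 4.98 CPM in the mutant and 24.9 to 30.3 CPM in N2. A list of 23 sperm markers summed to 37.7 to 41.4 CPM in the mutant and 51.1 to 55.8 CPM in N2. Of the 2 markers tested, *spe-41* fell (−1.49) and *spe-15* was not called (0.80). Of 2 more at a mean of 1 to 8 CPM, 1 rose and 1 fell. Embryo markers were low as well, at 80.4 to 85.1 CPM for the 16 genes in the mutant and 141.9 to 147 CPM in N2, where *vet-6* and *vet-2* fell, with log2 differences of −1.29 and −1.13.

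Housekeeping lists had few calls or none. Of 79 ribosomal protein genes, *rpl-24.2* rose (248 ± 4.18 CPM in the mutant, 116 ± 0.801 CPM in N2, log2 difference 1.09) and the list's median was −0.19. Of 41 translation factor genes, *ife-5*, a germline form of the cap-binding protein eIF4E, rose to 78.5, 87.1, 84.0 and 82.6 CPM in the mutant, against 20.4, 21.5, 22.4 and 20.5 CPM in N2 (log2 difference 1.95). No call was made among 31 aminoacyl-tRNA synthetase genes, 22 ribosome biogenesis genes, 33 proteasome genes (median −0.34), 26 DNA replication genes (−0.24), 32 cell cycle genes (−0.24), 23 meiosis genes (−0.31) and 27 P granule and germline RNA genes (−0.21). Of 50 respiratory chain genes, *asb-2*, which encodes a subunit of the ATP synthase, rose by 1.02, or 0.999 without N2 replicate 3. Outside the housekeeping lists, 3 of 54 nuclear hormone receptor genes rose and none fell (5.56% called). Among them *nhr-11* fell short of 2-fold (0.96 to 0.99) without N2 replicate 1 or 4 or mutant replicate 1 or 2. Of 87 F-box and MATH-BTB genes 4 rose and 4 fell (9.20% called), of which *fbxa-98* fell short of 2-fold (0.99) without N2 replicate 3 or mutant replicate 1. Both shares were near the 7.77% called among all genes.

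**Figure D4:**
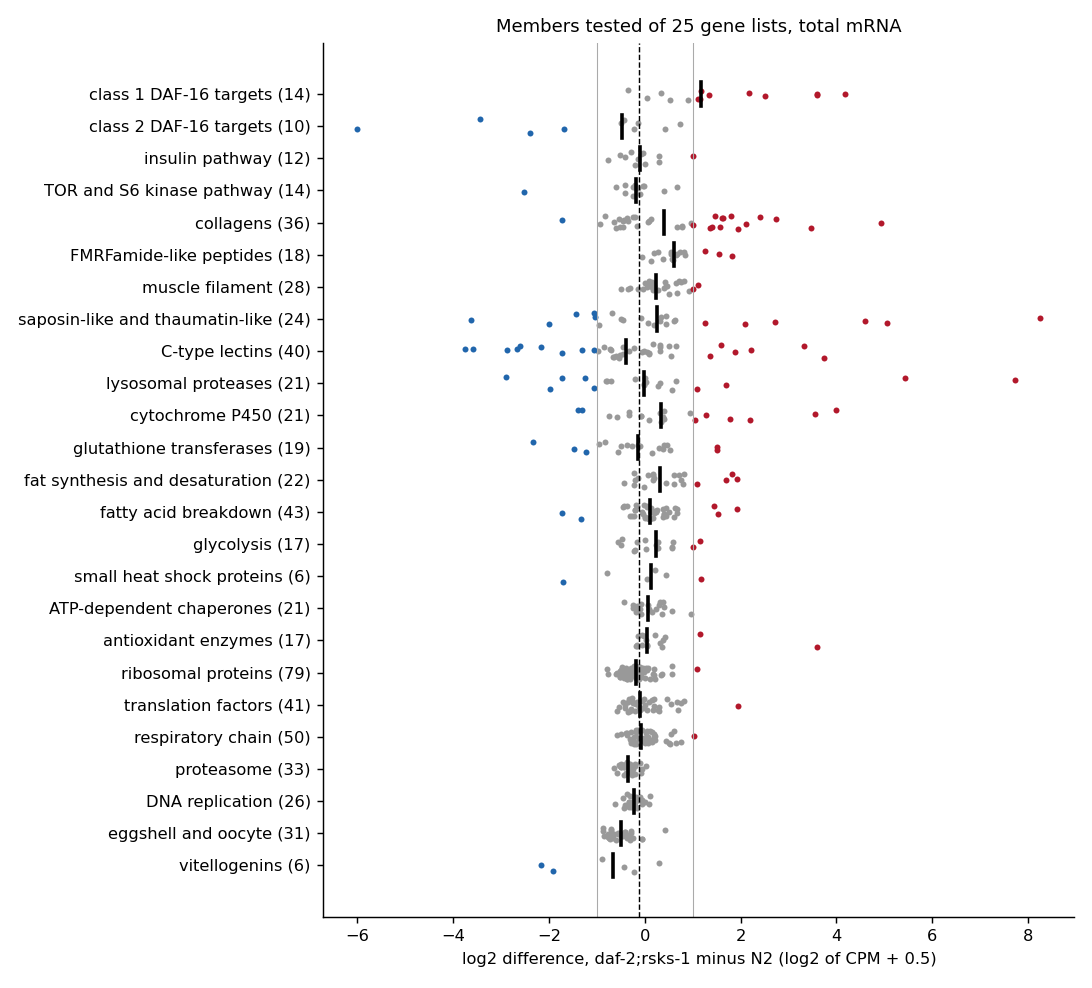
Log2 difference, *daf-2;rsks-1* minus N2, for each member tested of 25 gene lists (number tested in brackets), with genes called higher in red, called lower in blue and others in grey. Black bars are list medians and the dashed line is the median of all genes, −0.12; class 1 DAF-16 targets have a median of 1.16 and the proteasome genes lie within −0.65 to 0.02.

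The X chromosome differed from the autosomes. Its 1015 genes had a median log2 difference of 0.17, against −0.17 to −0.12 on the autosomes, and over the other scalings the X median was 0.16 to 0.30. Of the X genes 88 (8.67%) were called higher and 45 (4.43%) lower. Chromosome V came next, with 94 of 1344 genes higher (6.99%) and 70 lower (5.21%), while chromosomes I and III had 3.39% and 2.79% higher. Of all reads on genes, ribosomal RNA included, genes on the X made up 8.92 to 9.07% of reads in the mutant libraries and 8.23 to 8.70% in the N2 libraries. The difference from the autosomes was a description and had no test. The X chromosome is largely silent in the germline. The sum of the germline and oocyte markers, most of them eggshell and oocyte genes, was lower in the mutant as given above. The part of the germline in the X values was not tested.

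Genes called in the same direction lay next to each other in places. Of the 387 genes called higher, 36 (9.30%) had an adjacent coding gene also called higher, against 3.93% of all genes tested, and of the 241 called lower, 38 (15.8%) had an adjacent gene called lower, against 2.36%. The pairs named here are examples picked after their values were seen. The 18 upward pairs included *unc-38* with *icmt-1*, D1086.9 with H39E23.3, *fat-1* with *fat-2*, *clec-5* with *clec-6* and *dod-6* with T20G5.8. The 22 downward pairs included *dod-19* with *irg-8*, *clec-49* with *clec-50*, *vit-4* with *vit-3*, *dod-23* with *skpo-1*, and a run on chromosome V of *dct-17*, F35E12.6, *irg-5*, F35E12.9 and F35E12.10. Neighbours with similar sequence can share reads, and the libraries are unstranded, so that some pairs may not be independent measurements.

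Low-abundance genes held further members of these groups. Among 4175 coding genes with a mean of 1 to 8 CPM, tested in a fit of the genes above 1 CPM, 560 (13.4%) were called higher and 201 (4.81%) lower. Of 6 class 1 DAF-16 targets in this range 5 rose, of 4 small heat shock genes 4, of 33 collagen genes 17, and of 12 FMRFamide-like genes 6. *hsp-12.3*, a small heat shock gene, had 9.88, 11.3, 11.1 and 9.47 CPM in the mutant, against 0.566, 0.787, 0.604 and 0.869 CPM in N2. The lysosomal lipase gene *lipl-4*, known for lengthening life when overexpressed, had 9.96, 8.37, 7.63 and 8.66 CPM in the mutant and 0.081, 0.315, 0.259 and 0.193 CPM in N2. Both genes were under 1 CPM in every N2 library and above 7 CPM in every mutant library. Of 5 class 2 targets in the range 4 fell. Of 19 insulin-like peptide genes in the range 7 rose and 2 fell. Their median log2 difference was 0.42, against 0.29 for all 4175 genes of the range, which is the background here in place of −0.12. Among those that rose, chosen like the other low-abundance genes named here after their values were seen, *ins-22* stood at 8.55 ± 1.21 CPM in the mutant and 1.92 ± 0.220 CPM in N2 and *ins-23* at 5.26 ± 0.316 CPM in the mutant and 0.691 ± 0.320 CPM in N2. The insulin-like peptide gene *ins-7*, which acts through DAF-2, fell to 1.84, 1.84, 1.45 and 1.63 CPM in the mutant, against 13.7, 13.2, 12.5 and 12.7 CPM in N2 (log2 difference −2.63, adjusted p = 6.04e-25), the class 2 target *dod-21* to 0.127 ± 0.071 CPM against 5.23 ± 0.982 CPM, and *ins-19*, the other insulin-like gene that fell, to 0.121 ± 0.102 CPM against 3.40 ± 0.431 CPM.

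The same genes were set beside N2 worms on DR, a second long-lived state in the series. The DR comparison uses the same AL libraries as its baseline, so the values are given side by side and the difference between mutant and DR was tested directly. Of the 8086 genes 862 (10.7%) were higher in the mutant than in DR worms and 313 (3.87%) lower, 14.5% together. DR against AL gave 208 higher (2.57%) and 706 lower (8.73%), 11.3% together. The 8086 genes had passed the minimum on the mutant and AL libraries alone. Genes abundant only under DR were therefore not tested, while genes abundant only in the mutant were. The balance of higher and lower calls in both comparisons with DR depends on that choice. *mtl-1* was high in the mutant and near its AL level under DR, with 455 ± 23.2 CPM in the mutant, 22.02 ± 1.49 CPM under DR and 24.5 ± 1.68 CPM under AL, and a mutant minus DR difference of 4.34 (adjusted p = 2.8e-38). *dod-24* was low in both, at 2.13 ± 0.592 CPM in the mutant and 9.32 ± 0.813 CPM under DR against 165 ± 3.34 CPM under AL, and lower in the mutant than under DR by a log2 difference of −1.92. *irg-8* was almost level between mutant and DR, at 14.6 ± 1.08 and 16.02 ± 1.28 CPM, against 281 ± 5.16 CPM under AL.

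The genes named next were chosen after their values were seen, for lying on opposite sides of AL in the mutant and under DR. *cpr-4* was at 8.73 ± 0.951 CPM in the mutant, 164 ± 5.92 CPM under DR and 68.2 ± 3.04 CPM under AL (mutant minus DR −4.16, adjusted p = 1.42e-39), and *cpr-1* and *pept-1* were also lowest in the mutant and highest under DR. *lys-7* was at 3493 ± 65.95 CPM in the mutant, 119.7 ± 2.06 CPM under DR and 1389 ± 29.7 CPM under AL (mutant minus DR 4.86). *col-183* and *dpy-14* had the same order, with 291 ± 9.01 and 134 ± 3.05 CPM in the mutant, 0.517 ± 0.101 and 2.06 ± 0.458 CPM under DR, and 43.5 ± 4.64 and 24.9 ± 2.32 CPM under AL. So did *hch-1*, an astacin protease that acts in hatching, at 116 ± 4.59 CPM in the mutant, 0.430 ± 0.170 CPM under DR and 9.99 ± 0.529 CPM under AL. An exception, on the same side of AL in both, was the acyl-CoA synthetase gene *acs-2*, which was highest under DR, at 586 ± 10.9 CPM, against 40.8 ± 1.03 CPM in the mutant and 13.9 ± 1.04 CPM under AL. *nhr-62*, known to be needed for the long life of diet-restricted worms, was highest in the mutant and lowest under DR (38.8 ± 2.35 and 4.07 ± 0.972 CPM, mutant minus DR 3.12).

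**Figure D5:**
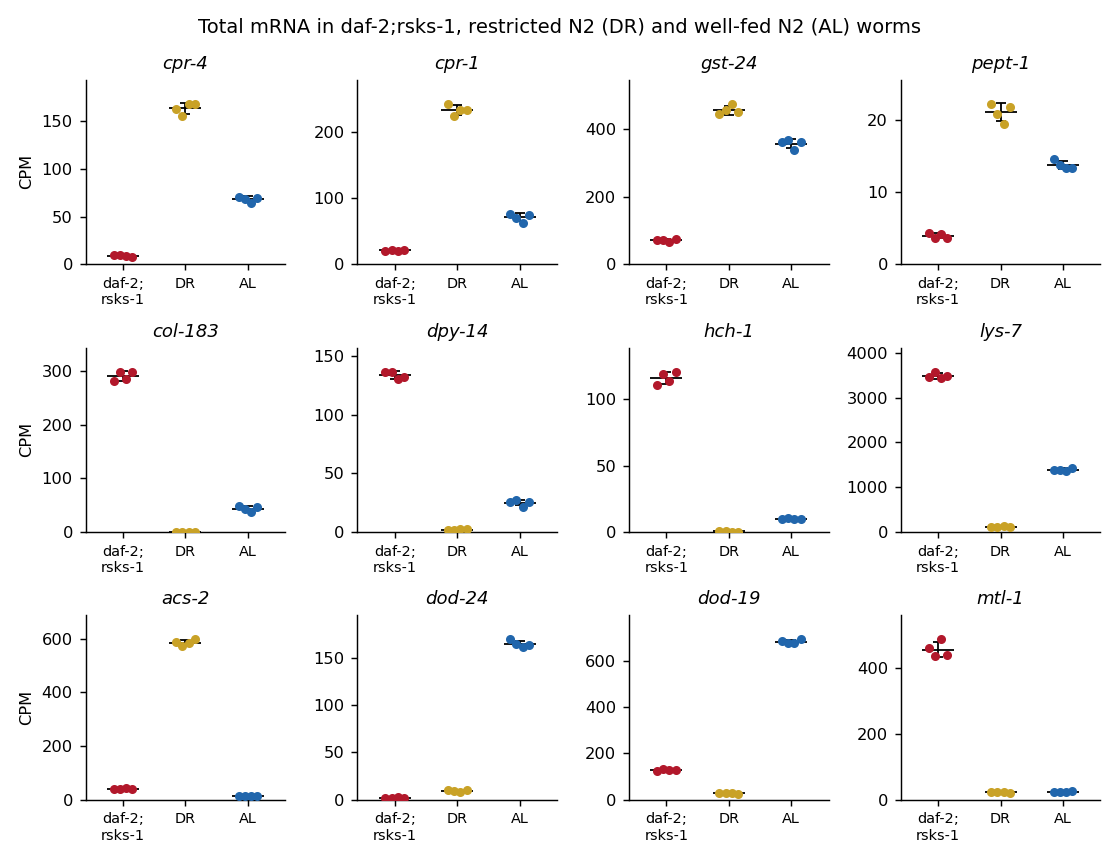
CPM in total mRNA for 12 genes, with 1 point for each of 4 libraries of *daf-2;rsks-1* (red), of N2 on dietary restriction (DR, gold) and of well-fed N2 (AL, blue), and the mean with its SD as a black bar; axes start at 0. *cpr-4*, *cpr-1*, *gst-24* and *pept-1* are lowest in the mutant, *col-183*, *dpy-14*, *hch-1* and *lys-7* highest there and lowest under DR, and *mtl-1* is high in the mutant alone.

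Polysome-bound mRNA gave the strain difference a second measurement in other libraries. Of the 387 genes higher in total mRNA 386 had the same sign in polysomal mRNA and 264 were called there too, 68.2% of the 387 and 65.7% of the 402 genes (4.97%) higher in polysomal mRNA. Of the 241 lower genes all 241 kept their sign and 195 were called, 80.9% of them and 40.2% of the 485 genes (6.0%) lower in polysomal mRNA, where 11.0% of all genes were called. Whether the 2 pools came from the same worms is not stated in the labels, so these shares are not counted as new replicates. The strain difference itself differed between the pools by at least 2-fold in 144 genes (1.78%), 45 upward (0.557%) and 99 downward (1.22%), by the interaction term in limma. *mtl-1* and *rsks-1* did not reach this, with polysomal differences of 4.38 and −2.70. *fat-3* was higher by 0.58 in polysomal and 1.70 in total mRNA (interaction −1.12, adjusted p = 1.25e-18). *ilys-5* and *vit-5* were lower by more in polysomal than in total mRNA (−7.92 and −5.55 for *ilys-5*, −1.34 and −0.24 for *vit-5*).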

How the data were processed

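RNA of whole worms was sequenced from polyA-selected, unstranded paired-end libraries. Per the labels and the study's methods, alignment by the authors was with TopHat on genome build WS220, counting per gene with HTSeq 0.6.1 and scaling with edgeR 3.0. As deposited, the signal is a read count scaled for library size (CPM) and for composition. Whole reads came back for 100% of values within 0.05 reads, and the factors equal trimmed-mean (TMM) factors over the 24 libraries, so the values, which the design had taken as plain CPM, are called CPM and the planned test was kept. Of 45461 gene IDs 44936 were matched to names in Ensembl release 115, used for names and chromosomes only, and 525 were not. In all 19740 genes had no reads in any library.

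The 4 *daf-2;rsks-1* and 4 N2 total mRNA libraries were compared by limma 3.58.1 (R 4.3.3) with a trended variance on log2(CPM + 0.5), fitted on all 24 libraries in 6 groups so that they share 1 estimate of spread. Coding genes averaging 8 CPM or more in the 8 libraries were tested. Calls needed both a 2-fold change and an adjusted p (Benjamini-Hochberg) below 0.05. An exact permutation of 4 against 4 libraries cannot give a two-sided p under 0.0286. On simulated data for the 8086 genes of this comparison, with 200 changed by a log2 of 1.5, limma called 99.5% of them with 0 false calls. The other genes were simulated with no change and all genes with the same dispersion, so false calls were hardly possible. The simulation checks that the code runs as meant and does not measure the error of the calls in the real data. Depth was 10250079 to 15658505 reads on genes per library, and counting intervals cover counting error only.

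Genes named were the checks of the strain, the 12 largest changes in each direction without overlap, up to 5 called members per direction of each of 54 lists and 10 marker lists, and all vitellogenin, insulin, TOR and antioxidant genes. The gene lists and the comparison were chosen with earlier results of these data known. Of the 187 genes named by this rule, 49 share exon bases with another gene, among them *gba-4*, *cpr-4*, *sod-3*, *daf-16*, *vit-3* and *vit-4*. Unstranded reads of overlapping genes cannot be told apart. Alternatives were other pseudocounts, filters, scalings and tools (edgeR 4.0.16, DESeq2 1.42.0), a replicate block and leaving out each library. The result of 1 gene named by this rule is not reported here. Promoter motifs were not analysed here. Sequences were not used here.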

Additional observations from a re-analysis of the deposited data

Results flagged for a closer look

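Single libraries stood apart from the other 3 of their strain in 19 of 366 groups of 4 checked over the named genes, where chance flags about 1 in 20. In the mutant these were F09C8.1 at 9.39 CPM in mutant replicate 4 (the others 7.40 to 7.51), *asp-18* at 21.8 CPM in mutant replicate 1 (the others 22.9 to 23.1), *ech-7* at 20.9 CPM in mutant replicate 1 (the others 22.9 to 23.2) and *gsr-1* at 95.1 CPM in mutant replicate 3 (the others 99.1 to 99.7). A further set in the mutant was *irg-5* at 3.97 CPM in mutant replicate 3 (the others 3.38 to 3.45), *nhr-62* at 42.3 CPM in mutant replicate 1 (the others 37.5 to 37.8) and *rict-1* at 135.8 CPM in mutant replicate 2 (the others 131.6 to 132.1). In N2 they were *aak-1* at 33.5 CPM in N2 replicate 4 (the others 37.4 to 38.2), *age-1* at 67.6 CPM in N2 replicate 2 (the others 64.2 to 64.8), *clec-4* at 33.4 CPM in N2 replicate 4 (the others 30.5 to 30.9) and *clec-5* at 2.75 CPM in N2 replicate 2 (the others 3.54 to 3.64). Other N2 values were *cyp-33C7* at 7.16 CPM in N2 replicate 3 (the others 5.31 to 5.58), *icmt-1* at 2.28 CPM in N2 replicate 2 (the others 1.29 to 1.45), *ilys-5* at 125 CPM in N2 replicate 3 (the others 131.1 to 132.0) and *pmk-1* at 17.2 CPM in N2 replicate 1 (the others 15.1 to 15.4). There were also *scl-24* at 0.890 CPM in N2 replicate 1 (the others 2.03 to 2.16), *sod-1* at 198 CPM in N2 replicate 3 (the others 179 to 182), *spp-3* at 132.3 CPM in N2 replicate 3 (the others 139.8 to 141) and *vit-6* at 11307 CPM in N2 replicate 2 (the others 12329 to 12433). In each case the gap to the nearest library took up most of the range of the group.

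The strain difference was not the same in the 2 mRNA pools for 7 of the named genes, by at least 2-fold and by the interaction term in limma with Benjamini-Hochberg adjustment. The log2 difference in polysomal minus that in total mRNA was apart for C54F6.15 by 1.29 (6.56 in polysomal and 5.27 in total mRNA, adjusted p = 2.61e-07), *col-139* by 1.03 (3.16 in polysomal and 2.12 in total mRNA, adjusted p = 3.02e-06), *dpy-14* by −1.104 (1.30 in polysomal and 2.41 in total mRNA, adjusted p = 5.99e-09) and *fat-3* by −1.12 (0.58 in polysomal and 1.70 in total mRNA, adjusted p = 1.25e-18). The same held for *ilys-5* by −2.37 (−7.92 in polysomal and −5.55 in total mRNA, adjusted p = 2.64e-21), *unc-38* by −1.90 (3.02 in polysomal and 4.92 in total mRNA, adjusted p = 2.02e-11) and *vit-5* by −1.105 (−1.34 in polysomal and −0.24 in total mRNA, adjusted p = 4.59e-20).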

How the results depend on the processing

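The number of calls, 387 higher and 241 lower, changed most with the filter on low values. The setting without the composition factor lost more calls than any other, though most were kept. There 490 were higher, all 387 among them, and 178 of the 241 lower calls remained. With no filter there were 1103 higher and 487 lower among 18795 genes, and with a minimum mean of 1 CPM 947 and 442 among 12261, all 387 and 241 genes being among them. The settings that tested about the same genes gave 370 to 490 higher and 178 to 269 lower, and leaving out each library 381 to 391 and 237 to 247. The extra calls are of genes below the minimum, whose depth limits the fold. Of single-gene values 3875 kept their call and direction, 33 (12 genes) fell short of 2-fold, among them *akt-2*, *asb-2*, *aco-1*, *aldo-1* and *myo-2*, which lie near a log2 difference of 1, and, without the composition factor alone, *asp-2*, *ugt-48*, *spp-8*, *spp-3* and *irg-1* (−0.97 to −0.92), and 17 (9 genes) turned sign. Without the composition factor *daf-2* turned to 0.0769, *pdk-1* to 0.0506, *mlst-8* to 0.0166, *raga-1* to 0.0758, *aak-1* to 0.105, *gsr-1* to 0.111, *sod-2* to 0.0552 and *msra-1* to 0.0522. DESeq2 gave 0.00825 for *aak-1* and 0.0191 for *gsr-1*, and median-ratio factors −0.00793 for *daf-16*. Leaving out single libraries moved *daf-16* between −0.0171 and 0.0099, *aak-1* between −0.0594 and 0.00325, *gsr-1* between −0.0266 and 0.00336 and *msra-1* between −0.144 and 0.00799. None of these genes was called, and the cause was not tested.

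The replicate numbers did not pair the samples. Same-numbered libraries of the 2 strains had deviation correlations of −0.0061, −0.14, −0.022 and 0.019, and the fit with the replicate number as a block gave 387 and 241 calls.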

Other observations

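A few genes were read in total mRNA of 1 strain and had no read in the 4 well-fed total mRNA libraries of the other. Among genes with at least 20 reads in 1 strain, 14 had none in N2 total mRNA and 2 had none in mutant total mRNA. *scd-2*, a receptor tyrosine kinase of the ALK family on chromosome V, had 0 reads in the 4 mutant libraries against 110 reads in N2. The N2 levels were 2.67, 1.97, 2.50 and 2.22 CPM. Against a floor of 3 reads over the mutant libraries, *scd-2* was at least 43.1-fold lower. In polysomal mRNA it had 0 reads in the mutant against 108 in N2. Y51A2A.4, also on chromosome V, had 193 reads in the mutant against 0 in N2, at least 54.7-fold higher, and 462 against 0 reads in polysomal mRNA, with 2 reads in total mRNA of N2 under DR. *clec-18*, F35E8.1 and F59A7.11 had 70, 61 and 59 reads in total mRNA of the mutant against none in that of well-fed N2. In polysomal mRNA of well-fed N2 they had 2, 0 and 1 reads, and in total mRNA under DR 2, 0 and 10 reads. These genes were chosen after their values were seen.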
